A study of Mus musculus with 31 samples.

Results

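Among 22609 genes measured by RNA sequencing in mouse mammary tissue at parturition, 38 were much higher in wild-type glands than in any gland short of Stat5 alleles. In at least 1 genotype with 2 alleles, not always both, they stood less than 2-fold above the highest level with 0 or 1 allele. They were chosen from the parturition values themselves: at least 10 FPKM (fragments per kilobase of transcript, relative to the mapped fragments of the library) in wild type, at least 3 times the highest of the other 5 genotypes, and the lower of the 2-allele genotypes less than 2 times the highest genotype with 0 or 1 allele. Of 5153 genes at 10 FPKM or more in wild type, 66 (1.28%) met the first 2 conditions, and the third left out 28, among them Wap, Csn3 and Spp1, whose levels already stepped up with 2 alleles. The parturition levels below therefore describe the choice and are not tested. No genotype analysed here carries 3 alleles, so the columns place a step between 2 and 4 alleles and do not show that 4 are needed.

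STAT5A and STAT5B are transcription factors that the prolactin receptor and its kinase JAK2 activate in mammary epithelium. Once phosphorylated they pair, enter the nucleus and bind sites of the form TTCNNNGAA. In the pregnant gland they drive the formation of alveolar cells and the switch to milk secretion, when these cells enlarge their endoplasmic reticulum (the compartment where secreted proteins fold) and their output of lipid.

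The columns are named for the functional alleles they keep. Null mice (Stat5abfl/fl;MMTV-Cre, line A) lost both genes only in cells in which the MMTV promoter drove Cre, an epithelial promoter, and other cells kept both. B mice carry Stat5abnull/Stat5a- and keep 1 Stat5b allele, A mice carry Stat5abnull/Stat5b- and keep 1 Stat5a allele, BB mice are Stat5a-/- with 2 Stat5b alleles, AB mice are Stat5ab+/null with 1 allele of each, and AABB is wild type with 4 alleles. In B, A, BB and AB the loss is in the germline and affects every cell. All are of the mixed strain 129SV::FVB/N::C57BL/6. Tissue was taken at day 6 of pregnancy (3 listed samples per genotype) and on the day of delivery, under 12 hours after it (3 listed samples of B and 2 of each other genotype). Each deposited column is the authors' mean over a genotype, so values carry no SD and differences could not be set against the spread of replicates. Whether both wild-type samples at parturition carry the high level of these genes cannot be seen. The extraction protocol speaks of 2 mice of each genotype, although 3 samples are listed on day 6. In A and B the sample tags share numbers and end in R and L, and whether they share animals is not given.

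The columns were checked by their own genes. At parturition Stat5a stood at 7.69 FPKM in Null, 9.69 in B, 18.1 in A, 4.24 in BB and 21.4 in AB, against 56.2 in AABB, and Stat5b at 8.46, 14.2, 11.4, 12.4 and 10.5 against 20.1 in the same order. Stat5b was thus not highest in BB among the mutants, and the columns labelled B and A still held transcript of the gene they lack in functional form. A fixed list of milk protein genes made up 0.714% of all FPKM in Null, 1.66% in B, 4.41% in A, 42.3% in BB and 44.3% in AB, against 66.3% in AABB. As deposited, the median gene stood 0.50 log2 units higher in Null and 0.23 higher in AB than in AABB. After scaling by the median ratio these values were 0.10 and 0.04. The columns did not share a fixed total, with summed FPKM of 432576 in Null and 1.19e+06 in AABB. Whether the share of milk transcripts made the shift was not tested. Levels below are FPKM as deposited, and log2 ratios are of scaled FPKM + 1, mutant over AABB. In such bulk samples, fewer cells of a type and less RNA per cell cannot be told apart. Luminal epithelial markers were present throughout, at 1651 FPKM summed over 16 genes in Null, 2909 in B, 2832 in A, 2607 in BB and 2273 in AB, against 1325 in AABB. Fibroblast and matrix genes summed to between 1924 and 2682 FPKM in the mutants against 345 in AABB, adipocyte genes to between 7936 and 34092 against 3848, and skeletal muscle genes to between 14.3 and 4234 against 219. These sums moved with genotype at parturition, and their part in the levels described below was not tested.

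Summed over the 38 genes, the level at parturition was 329 FPKM in Null, 337 in B, 351 in A, 491 in BB and 570 in AB, against 2889 in AABB. On day 6 of pregnancy the same sums were 339, 352, 353, 291 and 267 against 537 in that order. AABB was the highest column at parturition for all 38 genes, as the rule fixes, and for 22.9% of genes at 10 FPKM or more in AABB. In the sums the wild-type column stood furthest apart at the later stage, while the Null, B and A sums lay close to each other at both stages. Most of the day 6 difference between the AABB sum and each mutant sum came from 3 neighbouring genes described below. Of these, BC018473 had 125 FPKM in AABB against 0.0176 in B, St6galnac2 57.4 against 16.5, and St6galnac1 13.2 against 0.0208. The ratio of AABB to the highest other column had a median of 4.17 and ran from 3.00 (Snord65) to 113 (St6galnac1), with 10 genes above 5 and 6 above 10. The highest mutant column was AB for 19 genes, BB for 12, Null for 6 and B for 1. The median level as a percent of AABB was 10.6% in Null, 13.6% in B, 13.9% in A, 19.0% in BB and 21.9% in AB. For the 28 genes left out by the third condition the medians were 0.627% in Null, 17.4% in BB and 15.4% in AB. The third condition sets these genes apart by their levels at 0 or 1 allele relative to 2, so the low Null median of the 28 is part of the choice. After scaling, 36 of the 38 genes had at least 1 FPKM in at least 2 columns and could be compared, and each of the 36 was at least 2-fold lower in each mutant, which the rule all but fixes. Such a difference in all 5 mutants was found in 2.51% of the 13061 genes compared. Taken singly, 10.7% of those genes were at least 2-fold lower in Null, 10.1% in B, 10% in A, 5.37% in BB and 5.44% in AB. The other 2 genes, St6galnac1 and Fhad1, had 1 FPKM or more only in AABB.

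**Figure D1:**
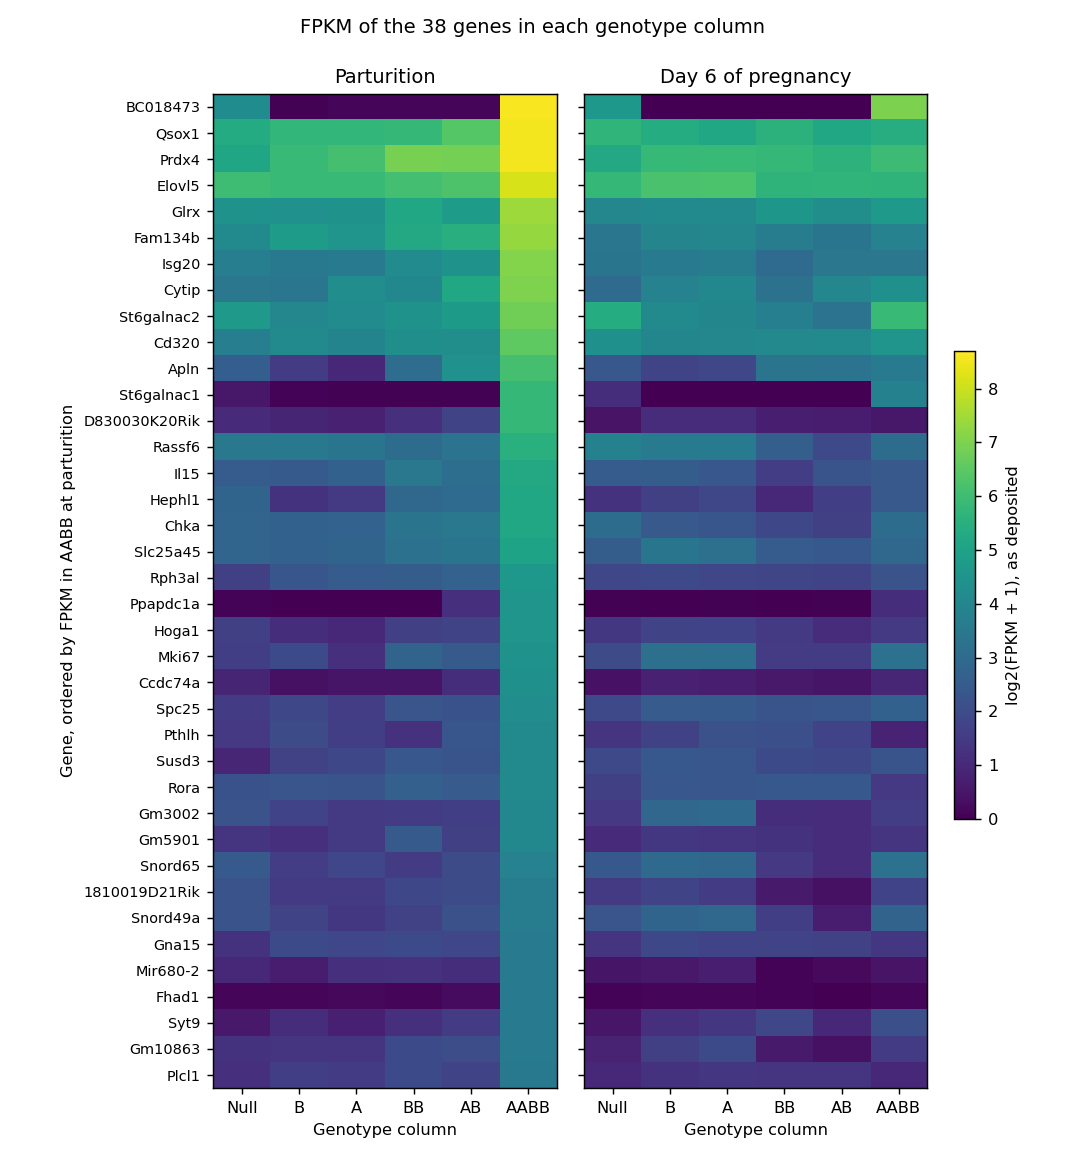
Level of each of the 38 genes as log2(FPKM + 1) in the 6 genotype columns at parturition (left) and on day 6 of pregnancy (right), each cell a mean over samples. The AABB column is the brightest in every row at parturition; on day 6 it is the highest column in 15 of the 34 genes that could be compared.

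**Figure D2:**
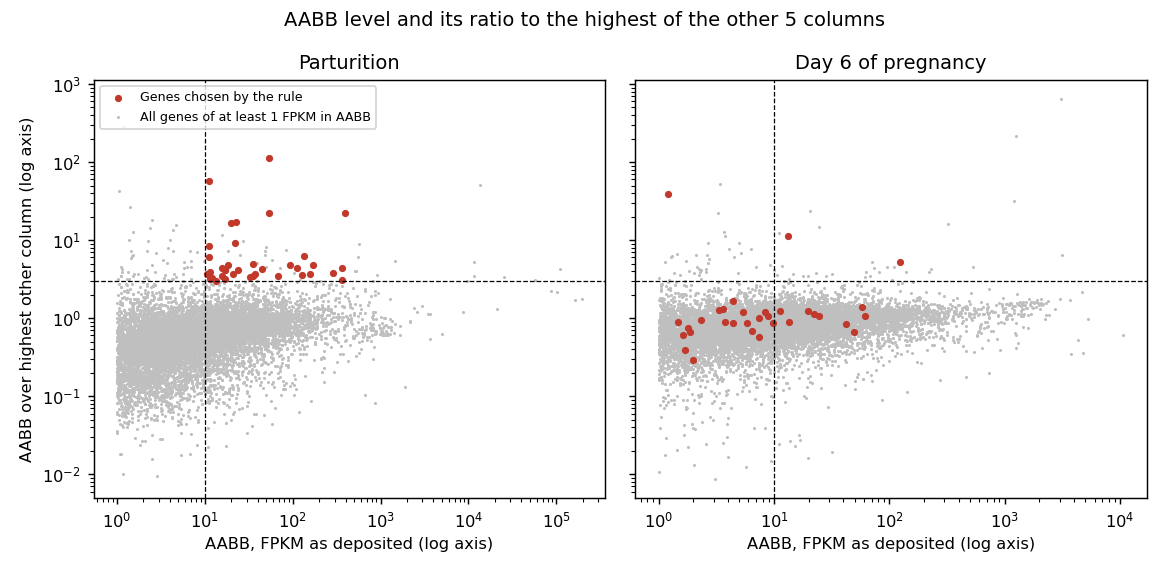
Ratio of AABB to the highest of the other 5 columns against the AABB level, both on log axes, for the 38 genes (red) and all genes of at least 1 FPKM in AABB (grey) with a value above 0 in another column. Dashed lines mark 3 times and 10 FPKM; at parturition the red points lie above and right of them by choice, and on day 6 only BC018473 and St6galnac1 do.

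Among the 5 coding members with the highest wild-type levels, Qsox1, Prdx4, Glrx and Fam134b have known roles in redox chemistry or the endoplasmic reticulum. Elovl5, also among the 5, is described below with lipid metabolism. Qsox1, which encodes an oxidase that makes disulfide bonds in secreted proteins, stood at 39.7 FPKM in Null, 53.8 in B, 52.6 in A, 54.0 in BB and 83.1 in AB, against 369 in AABB. Prdx4, a peroxidase of the endoplasmic reticulum that feeds the same oxidation, had 34.3, 56.9, 68.6, 121 and 117 FPKM against 369. Of these, Qsox1 in BB lay level with B and A, and its AB level was the highest of the mutants. Prdx4 in BB and AB was above Null, B and A and only just met the fold of the rule, at 3.06. The glutaredoxin gene Glrx, whose protein reduces mixed disulfides with glutathione in the cytosol, was at 20.7 FPKM in Null, 20.2 in B, 21.3 in A, 35.3 in BB and 26.7 in AB, against 171 in AABB. Fam134b (now Retreg1), a receptor for autophagy of the endoplasmic reticulum, was at 16.9, 26.2, 22.4, 36.7 and 43.3 FPKM against 159. On day 6 none of these 4 genes differed 2-fold between any mutant and AABB, with log2 ratios between −0.61 (Prdx4 in Null) and 0.36 (Qsox1 in Null). Of 26 genes of a fixed list of the secretory pathway and unfolded protein response, none met the rule, 14 were at least 2-fold lower at parturition in Null, 10 in B and 10 in A, and only 2 were so in BB and 2 in AB, with list medians of −0.22 in BB and −0.03 in AB. Over all genes compared, 10.7% were so lower in Null, 10.1% in B, 10% in A, 5.37% in BB and 5.44% in AB. AABB was the highest column for 6 of the 26, beside 13.1% of all genes compared and 22.9% of those at 10 FPKM or more in AABB. Rph3al encodes a Rab effector of regulated exocytosis, and it had 2.15 FPKM in Null, 4.08 in B, 4.80 in A, 4.91 in BB and 5.69 in AB, against 23.7 in AABB. Syt9, a vesicle protein of the synaptotagmin family, had 0.504, 1.19, 0.717, 1.27 and 1.84 FPKM against 11.2. In both genes AABB stood at least 4.17 times above every mutant column, and AB was the highest of the mutants.

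Elovl5, Chka and Ppapdc1a have known roles in lipid metabolism, and were picked out by name after their values were seen. Elovl5, the elongase of polyunsaturated fatty acids, was at 62.5 FPKM in Null, 59.2 in B, 58.2 in A, 68.0 in BB and 75.6 in AB, against 289 in AABB, so that the 5 mutants lay within 1.5 times of each other. On day 6 its levels were 54.0, 72.9, 74.0, 49.8 and 50.8 against 49.8 FPKM, with no column 2-fold from AABB. Chka, the kinase of the first step of phosphatidylcholine synthesis, was at 6.12 FPKM in Null, 5.55 in B, 5.60 in A, 9.12 in BB and 10.2 in AB, against 35.2 in AABB. Ppapdc1a (now Plpp4), a phospholipid phosphatase gene, was listed at 0 in A, was at or below 0.0706 FPKM in Null, B and BB, and stood at 1.32 in AB, against 22.5 in AABB. Elovl5 is the only member in a fixed list of 29 milk lipid synthesis genes, of which 15 were at least 2-fold lower in Null at parturition, 19 in B, 22 in A, 21 in BB and 20 in AB, with 2, 2, 2, 1 and 0 higher. Of all genes compared, 10.7% were at least 2-fold lower in Null, 10.1% in B, 10% in A, 5.37% in BB and 5.44% in AB. The shares higher were 19% in Null, 18.2% in B, 17.3% in A, 8.05% in BB and 10.2% in AB. Its partners in polyunsaturated synthesis, the desaturase genes Fads1 and Fads2, did not meet the rule: in AB they stood at 236 and 207 FPKM against 429 and 336 in AABB. Olah, Cidea and Fabp3 of the same list met the fold but stepped up at 2 alleles.

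A pair of members, Mki67 and Spc25, belong to cell division. Mki67, the proliferation marker, had 2.05 FPKM in Null, 2.87 in B, 1.33 in A, 5.76 in BB and 4.50 in AB, against 21.0 in AABB. Spc25, a subunit of the kinetochore complex that holds chromosomes to the spindle, had 1.94, 2.67, 1.97, 3.87 and 3.60 FPKM against 18.4. Other cell cycle genes were closer to wild type in AB: the replication clamp gene Pcna stood at 64.0 FPKM in AB against 76.8 in AABB, and the topoisomerase gene Top2a at 7.26 against 7.55. Of 31 genes compared in a fixed list of cell cycle and DNA replication, 7 were at least 2-fold lower in Null, 2 in B, 11 in A, 7 in BB and 1, Mki67, in AB, with none higher, beside the 10.7%, 10.1%, 10%, 5.37% and 5.44% of all genes lower in the same order. The summed level of the 33 measured genes of the list was 185 FPKM in Null, 217 in B, 173 in A, 194 in BB and 249 in AB, against 250.2 in AABB. On day 6, Mki67 was at 3.05 FPKM in Null, 8.25 in B, 8.25 in A, 1.86 in BB and 1.91 in AB, against 8.80 in AABB, so the columns with 1 allele lay near wild type and those with 2 alleles did not.

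**Figure D3:**
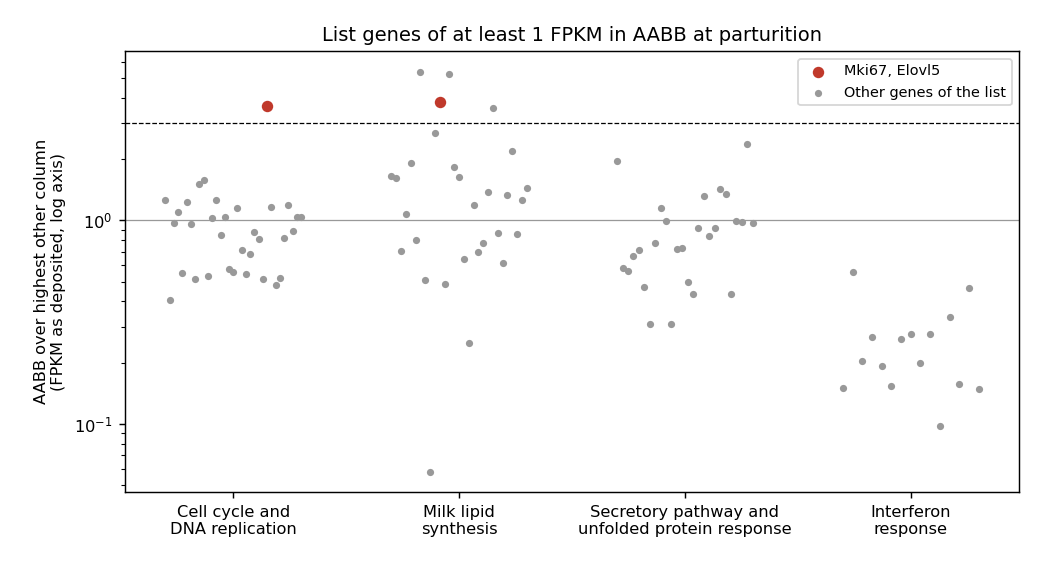
Ratio of AABB to the highest other column at parturition (log axis, FPKM as deposited) for the genes of 4 fixed lists with at least 1 FPKM in AABB; the dashed line marks 3 and the grey line 1. Mki67 and Elovl5 (red) are above the dashed line; Mki67 is the only cell cycle gene there, and in milk lipid synthesis Olah, Cidea and Fabp3 are also above it.

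Signalling and secreted factors came next. Apln, which encodes the peptide ligand apelin, had 5.00 FPKM in Null, 1.91 in B, 1.01 in A, 7.61 in BB and 20.1 in AB, against 69.0 in AABB. Its receptor gene Aplnr was lowest in AABB, with 25.6 FPKM in Null, 29.6 in B, 39.4 in A, 13.9 in BB and 26.1 in AB against 7.46. Over all genes compared, 19% were at least 2-fold higher in Null than in AABB and 10.2% in AB, after scaling. Pthlh encodes parathyroid hormone-related protein, which the lactating gland releases to draw calcium from bone, and it had 1.72, 2.93, 2.07, 1.38 and 4.07 FPKM in Null, B, A, BB and AB, against 17.0 in AABB. For Apln and Pthlh, AB was the highest mutant column. On day 6 Pthlh was low throughout, at 1.54, 2.22, 3.48, 3.32 and 2.39 FPKM in the mutants against 0.793 in AABB, which was its lowest column. Rora, an orphan nuclear receptor gene, likewise had its lowest day 6 level in wild type, at 2.14 FPKM in Null, 4.11 in B, 3.97 in A, 4.30 in BB and 4.31 in AB, against 1.71 in AABB. At parturition it had 3.59, 3.91, 3.77, 5.33 and 4.68 FPKM against 16.9 in AABB.

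Several members are known best from leukocytes. Cytip, a cytohesin-binding protein of blood cells, stood at 9.80 FPKM in Null, 9.56 in B, 18.3 in A, 15.7 in BB and 36.0 in AB, against 128 in AABB. Isg20, an interferon-induced exonuclease, had 12.3, 10.4, 11.3, 17.3 and 21.2 FPKM against 134, and the cytokine gene Il15 had 4.73, 4.57, 5.47, 10.2 and 7.91 against 37.5. Gna15, a G protein subunit of blood cells, had at most 2.88 FPKM in the mutants against 11.4. Leukocyte markers did not stand out in the same column. Of the fixed markers of macrophages (9 compared), T cells (2), B and plasma cells (1) and neutrophils (4), AABB was the highest column for none, beside the 13.1% given above. The 7 T cell genes summed to between 3.05 and 8.82 FPKM in the mutants against 4.13 in AABB, the 7 B and plasma cell genes to between 3.92 and 21.6 against 18.0, and the 9 macrophage genes to between 561 and 1342 against 296. In AABB no T cell gene was above 1.09 FPKM. The 1 B and plasma cell gene compared was at least 2-fold lower in B, A and BB, with log2 ratios of −1.46, −2.91 and −1.22. It was within 2-fold of AABB in Null (−0.50) and AB (−0.01). Of 18 interferon response genes, none was 2-fold lower at parturition in any mutant, 12 were higher in Null, 6 in B, 4 in A, 6 in BB and 2 in AB (19%, 18.2%, 17.3%, 8.05% and 10.2% of all genes), and AABB was the highest column for none, so Isg20 and Il15 did not follow that list. On day 6 Isg20 was between 7.28 and 11.5 FPKM in the mutants against 9.89 in AABB, and Il15 between 1.96 and 4.97 against 4.37.

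Transport and metabolism were represented by genes of moderate level. Cd320, the receptor that takes up vitamin B12 bound to transcobalamin, had 12.1 FPKM in Null, 16.6 in B, 14.2 in A, 19.1 in BB and 18.8 in AB, against 92.4 in AABB. Hephl1, a copper ferroxidase of the hephaestin family, had 6.00, 1.44, 1.78, 6.41 and 7.19 FPKM against 35.3, with Null above B and A. Hoga1, a mitochondrial enzyme of hydroxyproline breakdown, was at 2.16, 1.21, 0.976, 2.17 and 2.44 FPKM against 22.2, and the locus overlaps the gene 4933411K16Rik. Rassf6, of the Ras-association domain family, was at 10.2 FPKM in Null, 10.4 in B, 9.50 in A, 7.52 in BB and 8.88 in AB, against 44.9 in AABB, the single member with B as the highest mutant. Fhad1 and Ccdc74a were close to absent below 4 alleles. Fhad1 was between 0.0938 and 0.196 FPKM in the mutants against 11.3, and at most 0.1196 in every column on day 6. Ccdc74a was between 0.324 and 1.19 FPKM against 19.8. The remaining coding members Slc25a45, Susd3 and Plcl1 had ratios between 3.40 and 4.16.

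Promoters of 30 of the 38 genes were found in the RefSeq table of build GRCm38.p6 (36 genes matched by symbol and 2 by an older symbol), each from 250 bases before to 50 bases after an annotated start. The search was for the STAT5 core TTCNNNGAA, which reads the same on both strands. It was present for 3 of the 30 genes (10%), against 9.55% of 27025 genes in the table and 7.96% of the 4182 with at least 10 FPKM in AABB, a share near the background. With 1 more base between the arms it was found again in 3 genes, Isg20, D830030K20Rik and Susd3 (10%, against 8.01% of all genes). A match here is a run of letters, not a bound site. The 3 promoters with the shorter form are shown 5′ to 3′ with the match in capitals. That of Isg20 (chr7:78913174-78913473, plus strand, 1 of 3 annotated starts) holds it with its first base 73 bases before the start, that of Fam134b (chr15:25942429-25942728, plus strand, 1 of 4 starts) 87 bases before, and that of Rph3al (chr11:75925842-75926141, minus strand) 120 bases before.
Isg20: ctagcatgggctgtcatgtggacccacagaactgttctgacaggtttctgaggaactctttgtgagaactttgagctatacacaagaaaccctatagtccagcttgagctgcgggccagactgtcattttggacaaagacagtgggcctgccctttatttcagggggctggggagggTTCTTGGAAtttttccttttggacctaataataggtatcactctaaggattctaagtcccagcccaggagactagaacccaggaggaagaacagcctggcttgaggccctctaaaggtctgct
Fam134b: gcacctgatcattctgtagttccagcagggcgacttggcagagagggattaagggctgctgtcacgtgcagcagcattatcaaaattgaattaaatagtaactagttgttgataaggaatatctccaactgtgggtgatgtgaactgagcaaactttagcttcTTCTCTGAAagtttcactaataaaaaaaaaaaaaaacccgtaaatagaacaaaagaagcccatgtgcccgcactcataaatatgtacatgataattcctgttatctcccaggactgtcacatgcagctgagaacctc
Rph3al: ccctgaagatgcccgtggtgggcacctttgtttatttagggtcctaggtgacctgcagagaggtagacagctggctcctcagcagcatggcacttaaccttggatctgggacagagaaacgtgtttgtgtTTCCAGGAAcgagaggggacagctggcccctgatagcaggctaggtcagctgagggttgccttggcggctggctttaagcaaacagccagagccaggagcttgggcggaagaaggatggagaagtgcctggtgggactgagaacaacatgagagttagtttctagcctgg

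A pair of members at 1 locus had an order of columns that did not follow the number of alleles. BC018473, a long noncoding RNA, and St6galnac1, a sialyltransferase that caps mucin-type sugar chains, are adjacent in the RefSeq annotation, and St6galnac2, of the same enzyme family, lies on the other side with 1 annotated gene between. At parturition BC018473 stood at 17.8 FPKM in Null and at 0.0250 in B, 0.0768 in A, 0.0978 in BB and 0.105 in AB, against 391 in AABB. St6galnac1 had 0.481 FPKM in Null and 0.0671, 0.0292, 0.0406 and 0.0321 in B, A, BB and AB, against 54.4 in AABB. Both were thus higher in Null than in B, A, BB and AB. On day 6, which the rule did not use, the order was the same: BC018473 was at 24.0 FPKM in Null and between 0.00749 and 0.0181 in B, A, BB and AB, against 125 in AABB, and St6galnac1 at 1.18 and between 0.00281 and 0.0208, against 13.2. Of the 4647 genes with at least 10 FPKM in AABB at both stages, only these 2 had AABB and Null each at least 3 times the highest of B, A, BB and AB at both stages; this count was chosen after their values were seen. St6galnac2 was graded less steeply, at 24.9 FPKM in Null, 15.2 in B, 17.5 in A, 20.7 in BB and 25.7 in AB, against 112 in AABB, and on day 6 at 41.2, 16.5, 15.01, 12.6 and 8.95 against 57.4. The next gene beyond St6galnac1, Mxra7, did not share the pattern, with 16.5 FPKM in Null and between 7.74 and 13.0 in B, A, BB and AB, against 2.46 in AABB at parturition. Stat5a and Stat5b lie on the same chromosome, 11, which holds 6 of the 38 genes (15.8%) and 9.20% of genes at 10 FPKM or more in AABB. The 6 include the neighbours BC018473, St6galnac1 and St6galnac2, so they are not 6 separate loci, and linkage was not tested. Null differs from B, A, BB and AB in allele number, in keeping Stat5 outside the cells with Cre, and in its mouse line with floxed alleles and Cre. These differences cannot be told apart.

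**Figure D4:**
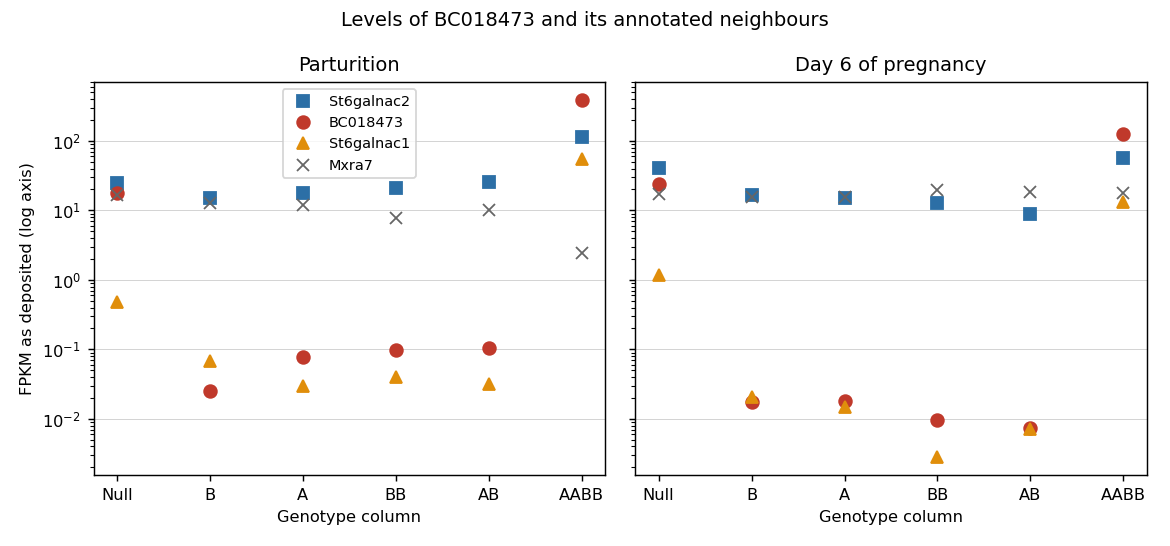
FPKM as deposited (log axis) of BC018473, St6galnac1, St6galnac2 and the neighbouring gene Mxra7 in each genotype column at parturition (left) and day 6 of pregnancy (right); each point is a mean over samples. BC018473 and St6galnac1 are at or below 0.105 FPKM in B, A, BB and AB at both stages and higher in Null and AABB.

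Small and repeated transcripts are the least certain members. Snord65 and Snord49a, small nucleolar RNAs of 57 and 62 bases, are adjacent and lie within the long noncoding RNA gene 2410006H16Rik. Snord65 had 4.50 FPKM in Null, 2.01 in B, 2.64 in A, 1.85 in BB and 3.02 in AB, against 13.5 in AABB, and Snord49a had 3.64, 2.45, 1.65, 2.24 and 3.41 against 11.5. At parturition the host gene went the other way, at 67.3, 169, 182, 113 and 51.4 FPKM against 27.7. On day 6 AABB was the highest column of the host gene, at 146 FPKM against 55.0 to 98.6 in the mutants. The same held for Snord65 but not for Snord49a. Reads of such short genes within a longer one are hard to assign, and levels per kilobase of so short a transcript rest on few bases. Mir680-2, at 0.567 to 1.36 FPKM in the mutants against 11.3 in AABB, is a hairpin locus of 110 bases, and poly(A) RNA does not measure the mature miRNA. RefSeq gives the mature form, with its seed (bases 2 to 8) in capitals, identically for Mir680-1, Mir680-2 and Mir680-3. The hairpin sequences were not compared, so whether reads could belong to another of these loci was not examined.
mmu-miR-680: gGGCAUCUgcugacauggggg

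The predicted gene D830030K20Rik was at 0.737 to 2.41 FPKM in the mutants against 53.9 in AABB, and Gm3002, a transcribed pseudogene, at 1.77 to 3.63 against 15.9. Gm5901, at 1.29 to 4.58 FPKM against 15.9, overlaps Fam160a2, which stood at 9.09 in Null and 39.6 in AB against 120 in AABB and was left out by the third condition. 1810019D21Rik, which overlaps Esrp2, and Gm10863 had ratios of 3.24 and 3.53. In all, 15 of the 38 genes overlap another annotated gene, and the labels do not say that strand was used, so reads of the overlapping partners may not have been told apart.

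Day 6 of pregnancy gave the values that the rule did not use. There, 34 of the 38 genes could be compared; Ppapdc1a (1.21 FPKM in AABB), Ccdc74a (0.922), Mir680-2 (0.361) and Fhad1 (0.1196) were below 1 FPKM in at least 5 of the 6 columns. At least 2-fold lower were 7 of 34 genes in Null (20.6%), 4 in B (11.8%), 4 in A (11.8%), 10 in BB (29.4%) and 10 in AB (29.4%). Over the 13367 genes compared, the shares were 2.09% in Null, 5.18% in B, 5.53% in A, 3.6% in BB and 5% in AB. Higher were 0, 1, 2, 2 and 2 members (Gm3002 in B and A, Pthlh in A, BB and AB, and Rora in BB and AB), beside 2.21%, 7.53%, 7%, 5.11% and 6.75% of all genes. BC018473 and St6galnac1 were lower in all 5 mutants and were the only members to be so (0.546% of all genes), and St6galnac2 was lower in B, A, BB and AB. Without these neighbours the counts of lower genes were 5 in Null, 1 in B, 1 in A, 7 in BB and 7 in AB. Apln made up the remaining gene in B and in A, at 2.41 and 2.60 FPKM against 11.3 in AABB, and it was within 2-fold in BB and AB, at 9.27 and 8.91. Cytip and Hephl1 were lower in Null and BB. Lower in both BB and AB were Chka, Mki67, Snord65, Snord49a and 1810019D21Rik. Null alone among the mutants was 2-fold lower for Syt9, at 0.440 FPKM against 3.31, though B and AB lay near that limit with log2 ratios of −0.95 and −0.99.

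The median log2 ratio of the 34 genes on day 6 was −0.24 in Null, 0.01 in B, −0.10 in A, −0.30 in BB and −0.27 in AB, beside medians over all genes between −0.02 and 0.04. All 5 mutants were within 2-fold of AABB for 17 of the 34 genes. AABB was the highest column for 15 of the 34, beside 29.6% of all genes compared and 42% of those with 10 FPKM or more in AABB. Of the 11 members with 10 FPKM or more in AABB on day 6 only BC018473 and St6galnac1 were at least 3 times every other column, beside 0.499% of all genes at that level. At the earlier stage the wild-type column was thus not set apart for most members. Wild-type levels were higher at parturition than on day 6 for 38 of 38 genes, at a median ratio of 6.51, against a median of 0.832 over all genes of 10 FPKM or more in AABB at parturition. The tables were normalized separately and the rule chose high parturition values, so this ratio is a description. Ratios ran from 1.61 for Snord65 to 94.5 for Fhad1 and 112 for D830030K20Rik.

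**Figure D5:**
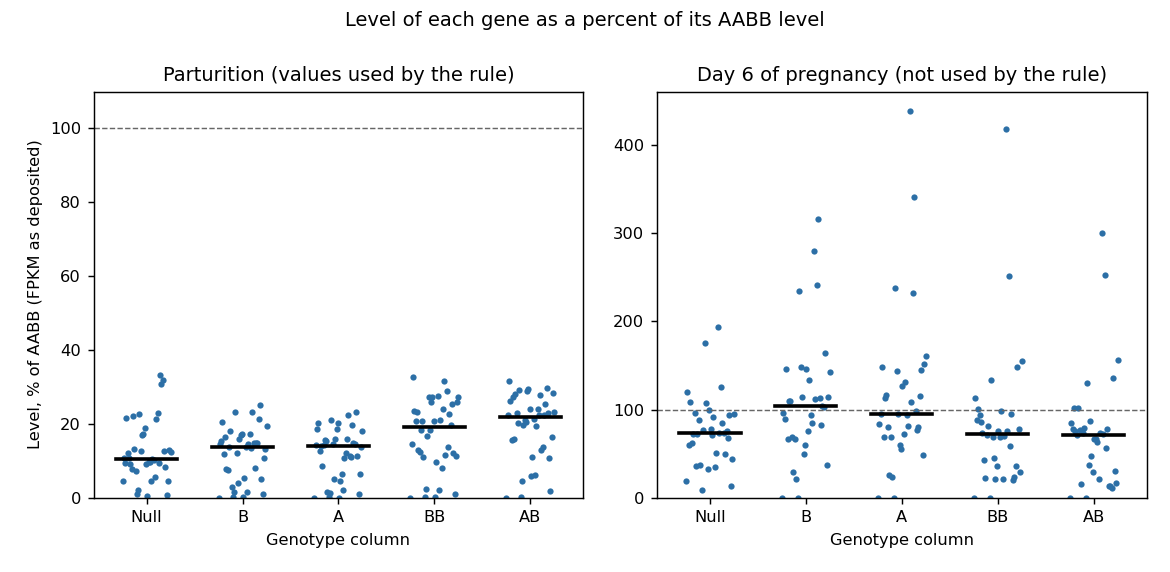
Level of each gene as a percent of its AABB level (FPKM as deposited) in each mutant column at parturition (left, 38 genes) and on day 6 of pregnancy (right, the 34 genes that could be compared); black bars are medians and the dashed line is AABB. At parturition the medians lie between 10.6% in Null and 21.9% in AB; on day 6 they lie between 71.4% in AB and 104% in B, with wide spread.

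Among the mutants at parturition, A and B lay close to each other. Of the 36 genes compared, none differed 2-fold between A and B, beside 0.36% of all genes higher and 0.329% lower in A. In AB against BB, 4 were at least 2-fold higher (Cytip, Apln, Ppapdc1a and Pthlh), beside 1.06% of all genes, and none was lower. A second allele went with a modest step. In BB against B, 5 genes were at least 2-fold higher (Prdx4, Apln, Il15, Hephl1 and Gm5901), beside 3.24% of all genes, with a median log2 ratio of 0.54 over the 36 genes. In AB against A, 8 were higher (Fam134b, Isg20, Cytip, Apln, D830030K20Rik, Hephl1, Ppapdc1a and Mki67), beside 2.7% of all genes, with a median of 0.77. The third condition bounds the step in the lower of BB and AB, so the counts are descriptive. BC018473, Apln and Hephl1 were at least 2-fold lower in B than in Null and in A than in Null, beside 2.86% and 3.17% of all genes, and none was higher. On day 6 the step at 2 alleles was not seen: 5 of 34 genes were at least 2-fold lower in BB than in B (Mki67, Gm3002, Snord65, 1810019D21Rik and Snord49a; 4.58% of all genes), 7 were lower in AB than in A (the same 5, Rassf6 and Gm10863; 4.11%), and in each pair 1 gene, Apln, was higher.

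Values near the limits of the rule were continuous with those beyond them. Closest inside the fold of 3 were Snord65 (3.00), Prdx4 (3.06) and Snord49a (3.15), and closest outside were Prkaa2 (2.97), Slc50a1 (2.96) and Ell2 (2.90). For the level of 10 FPKM in AABB, Plcl1 (10.5), Gm10863 (11.2) and Syt9 (11.2) were inside and 2010317E24Rik (8.18), Kcnj15 (7.06) and Snord66 (6.96) outside. For the step at 2 alleles, Gm10863 (1.90), Prdx4 (1.70) and Mki67 (1.57) were inside and Fam160a2 (2.21), Abcg2 (2.24) and Csn1s2b (2.31) outside.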

How the data were processed

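Poly(A) RNA of mammary tissue without lymph nodes was extracted with TRIzol and sequenced on an Illumina HiSeq, per the labels' protocols. The submitters' processing notes name CASAVA, TopHat and the build mm9, without versions. The deposited values are FPKM, 1 column per genotype in each of 2 tables (22609 genes), the authors' means over the 31 listed samples. The program behind FPKM, the annotation and any filter are not given in the sources used here. Depth is unknown, so no counting interval was computed.

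The tables hold means, so the planned limma test, the replicate block and the omission of replicates could not be run, and nothing was tested. Within a table each column was divided by a factor, the median of its ratios to the genes' geometric means, taken over genes of at least 1 FPKM in all 6 columns (10864 at parturition, 11733 on day 6; factors 0.799 to 1.13 and 0.919 to 1.07). Genes of at least 1 FPKM in at least 2 columns were compared as log2(FPKM + 1), and a 2-fold difference was counted. The genes, the 26 lists and the choices were made with earlier results of these data known. Genes named were, among members with characterised names, the 15 highest in AABB, the 10 with the largest ratio, members of a list, the 10 highest on day 6, the 5 highest and 5 lowest for Null over AABB on day 6, and those next to each limit. Other members and their neighbours were named after their values were seen. RefSeq (GRCm38.p6) gave names, neighbours and sequences; no mm9 coordinate was used. The calculation was tested on simulated data. Python 3.11.15, numpy 2.4.6, pandas 2.3.3 and matplotlib 3.10.9 were used.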

Additional observations from a re-analysis of the deposited data

How the results depend on the processing

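The list itself depended on its limits. A fold of 2 in place of 3 gave 101 genes and a fold of 4 gave 21, an AABB minimum of 20 FPKM gave 22, and leaving out the third condition gave 66. Applied to scaled FPKM the rule gave 58 genes, 37 of them shared. A minimum of 5 FPKM gave 46. On day 6 of pregnancy the count of lower genes in Null was 4 among genes of at least 5 FPKM in 2 columns. With the 58 members chosen on scaled FPKM it was 8 in B and 7 in A, against 4 in B and 4 in A with the 38. Without BC018473, St6galnac1 and St6galnac2, a choice made after seeing the data, it was 1 in B and 1 in A. The number of genes compared differs between these settings, so the counts are not shares and do not show a changed proportion. In 72 other cases, the list of 46 genes among them, counts stayed within 1.5 times of those reported, and medians of log2 ratios moved by less than the log2 of 1.5, a limit that is wide beside the small day 6 medians. The day 6 median in B was near 0 and changed sign, from 0.08 down to −0.15 among genes of at least 5 FPKM in 2 columns, a median also added after seeing the data. A cause was not tested for any of these. No paired analysis was possible because the columns are means that carry no replicate number, and for the same reason no replicate could be left out. The lack of depth and replicates limits every value, most of all those under 1 FPKM.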

Other observations

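Scaling the columns first brought 21 further genes past the same rule. They include Malat1, at 367 FPKM in AABB as deposited, and the small nucleolar RNA genes Snord99 and Snord35a. Stat5a itself was among the 21, at 7.69 FPKM in Null, 9.69 in B, 18.1 in A, 4.24 in BB and 21.4 in AB, against 56.2 in AABB as deposited. The mutants lack functional Stat5a alleles by design, so its place here is largely fixed and is not read as a response. The citrate carrier gene Slc25a1, which exports citrate from mitochondria for fatty acid synthesis, had 305 FPKM in Null, 272 in B, 220 in A, 92.4 in BB and 104 in AB, against 672 in AABB, so that its lowest columns were those with 2 alleles. The stress-response gene Nupr1 was at 117, 80.6, 74.9, 69.9 and 85.4 FPKM against 310.2. The iodide transporter gene Slc5a5, which loads iodide into milk, was at 3.58, 8.30, 3.74, 4.38 and 7.45 FPKM against 22.0. The lactate and pyruvate transporter gene Slc16a1 was at 15.9, 9.72, 9.13, 10.8 and 13.5 FPKM against 36.7. These genes were chosen for the list after their values were seen.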
